A study of Mus musculus with 6 samples.

Results

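The genes described here code for histones, the proteins that package DNA, and were taken by gene name: every gene of the deposited table whose symbol begins with H1f and a digit, H2ac, H2bc, H3c or H4c, or with the older prefixes Hist1h to Hist4h. The rule found 72 of the 56748 genes in the table. They comprised 12 genes of the linker histone H1, 19 of H2A, 17 of H2B, 12 of H3 and 12 of H4. The rule uses names and no measured value.

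The RNA sequenced came from airway basal cells, the stem cells of that epithelium, in primary culture from tracheas of wild-type mice after 4 days. Cells of 3 libraries had received UK-5099, which blocks the mitochondrial pyruvate carrier. The remaining 3 libraries came from cells given a mix of 3 inhibitors: Y-27632 and the dual SMAD inhibitors A8301, against type I receptors of TGF-beta, and DMH-1, against those of BMP. With no untreated group, a gene called lower with UK-5099 may equally be higher with the 3 inhibitors, and whether Y-27632 was also present with UK-5099 is not stated in the labels. Nor do they say that replicates were separate animals or cultures, and the p-values then cover the spread between these libraries alone, which may be technical.

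DNA is wound around octamers of the core histones H2A, H2B, H3 and H4, and linker histones of the H1 class bind where it enters and leaves the octamer. Most of these genes lie in clusters and are switched on in S phase, when DNA is copied, and their mRNAs normally end in a stem-loop bound by the protein SLBP in place of a poly(A) tail. Some members, such as H1f0, are expressed outside S phase and carry a poly(A) tail, and several S phase genes also give polyadenylated transcripts, as described in differentiating cells. The labels do not state whether poly(A) RNA was selected before sequencing, so a lower count of a histone gene here may be fewer transcripts or fewer polyadenylated ones, and these cannot be told apart.

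The stem-loop was searched on the transcribed strand of the transcripts of GENCODE M21 (GRCm38 build), as a run of 16 bases made of GG, any 2 bases, CTT, any base, T, any base, AG, any 2 bases and CC. It was present in the longest annotated transcript of 42 of the 72 genes, or 58.3%. For all protein-coding genes, members included, a match in any protein-coding transcript was counted. By that wider search 136 of 21901 genes, or 0.621%, held it. The sites below are those of the genes whose results are given in most detail, written with T for U, 5′ to 3′, with the stem-loop in capitals and up to 5 bases on either side.
H1f2: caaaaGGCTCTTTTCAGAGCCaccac
H1f3: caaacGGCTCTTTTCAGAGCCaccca
H1f4: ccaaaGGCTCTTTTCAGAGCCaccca
H2bc8: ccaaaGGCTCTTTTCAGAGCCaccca
H3c15: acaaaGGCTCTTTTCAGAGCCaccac
H3c3: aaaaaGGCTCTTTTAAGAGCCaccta
H4c9: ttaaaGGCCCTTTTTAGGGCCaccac

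The sites of H1f4 and H2bc8 were the same in every base shown, while that of H4c9 had another stem. No stem-loop was found in the longest annotated transcript of H1f0, H2bc4 or H2bc21. In 22 genes the longest transcript ended within 100 bases of the stem-loop, in 20 it ran further, and in 30 it held none. The transcript ran on for 840 bases past the stem-loop in H1f2, 1153 in H1f4, 377 in H3c15, 330 in H4c9 and 155 in H2bc8, and for 74 in H3c3.

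Values below are normalized counts, that is, gene reads divided by the authors' size factor for the library. Of the 72 genes, 29 had a mean of at least 10 over the 6 libraries and were tested, 43 were below that level, and 11 of the 43 had no read in any library. With UK-5099, 6 of the 29 tested genes were lower (H1f0, H1f2, H2bc4, H2bc8, H2bc21 and H3c15) and 3 were higher (H1f4, H1f11-ps and H3c3) by limma at a Benjamini-Hochberg adjusted p under 0.05. The other 20 did not pass. The 6 were 20.7% of the tested histone genes, beside 26.6% of all 15704 genes tested that were lower. The 3 were 10.3%, beside 27.2% of all genes that were higher. In either direction 31.0% of the histone genes were called, beside 53.8% of all genes. The values of both groups did not overlap for 14 of the 29, or 48.3%, beside 60.8% of all genes. Calls and separated groups were therefore no more frequent among histone genes than elsewhere. The median log2 fold change, UK-5099 minus 3 inhibitors, was -0.32 over the 29 genes and -0.00049 over all genes, and 22 of the 29 were below 0. In bulk samples, fewer cells of a type and less RNA per cell cannot be told apart.

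**Figure D1:**
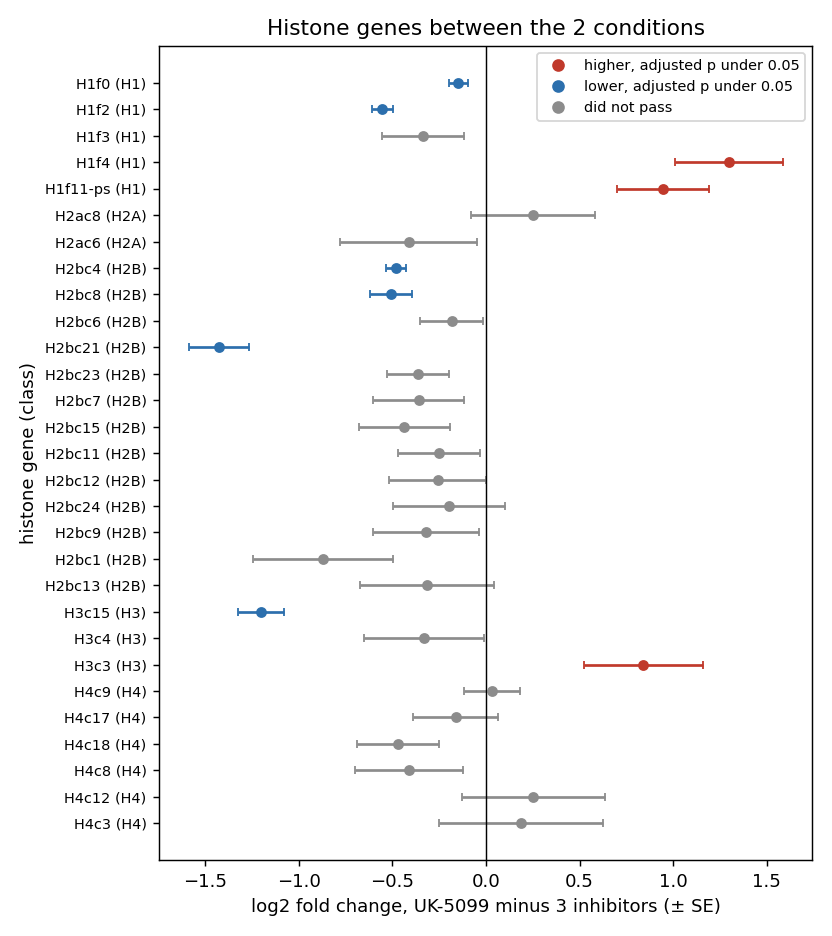
Log2 fold change of each tested histone gene (x axis, UK-5099 minus 3 inhibitors, with the standard error as a bar), grouped by class on the y axis and coloured by the limma result. The 13 H2B genes all lie left of 0, and the points furthest from 0 are H2bc21 at -1.43, H1f4 at 1.30 and H3c15 at -1.20.

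The linker histones differed among themselves in direction. H1f0 (ENSMUSG00000096210) encodes H1.0, the linker histone that is made independently of replication and accumulates in resting and differentiating cells. It had the highest level per kilobase of transcript of the histone genes, at 2544 normalized counts per kb. Its normalized counts were 5351, 4859 and 4688 in UK-5099 replicates 1, 2 and 3, and 5372, 5502 and 5600 in 3-inhibitor replicates 1, 2 and 3. The groups did not overlap, but UK-5099 replicate 1 lay next to the lowest 3-inhibitor library. The difference was 1.11-fold lower with UK-5099 (log2 fold change -0.15 ± 0.05 SE, limma adjusted p = 0.0284). That call was lost in 6 of 16 alternative settings, among them limma-voom on the reads (limma-voom adjusted p = 0.078) and the fit without UK-5099 replicate 2 (limma adjusted p = 0.0599), 3-inhibitor replicate 2 (0.083) or 3-inhibitor replicate 3 (0.0994), over a range of 0.00184 to 0.112.

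H1f2 (ENSMUSG00000036181), which encodes H1.2 and had 854 normalized counts per kb, was the next most abundant. Its normalized counts were 1073, 1041 and 1120 with UK-5099 and 1475, 1656 and 1624 with the 3 inhibitors. Every UK-5099 library was below every 3-inhibitor library, and the gene was 1.47-fold lower with UK-5099 (log2 fold change -0.55 ± 0.06, limma adjusted p = 7.48e-06). H1f4 (ENSMUSG00000051627), which encodes H1.4, went the other way. It had 47.8, 40.8 and 40.2 normalized counts with UK-5099 and 16.5, 11.6 and 24.7 with the 3 inhibitors. The groups were apart, with the widest spread among the 3-inhibitor libraries, and H1f4 was 2.46-fold higher with UK-5099 (log2 fold change 1.30 ± 0.29, limma adjusted p = 0.00251). In GENCODE M21 the exons of H1f4 overlap those of H2bc6 on the same strand, so that reads there can be counted for either gene or neither. H2bc6 itself did not pass, with a log2 fold change of -0.18 (95% interval -0.55 to 0.18).

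H1f3, which encodes H1.3, had 30.5, 27.8 and 26.8 normalized counts with UK-5099 and 37.1, 31.3 and 40.2 with the 3 inhibitors. The groups did not overlap, but the difference did not pass (log2 fold change -0.34 ± 0.22, limma adjusted p = 0.222) except in the fit without the trend (limma adjusted p = 0.0457). H1f11-ps (ENSMUSG00000091230) is annotated as a processed pseudogene on chromosome 19 and shares no 50-base stretch with another transcript. It had 29.5, 31.6 and 30.4 normalized counts with UK-5099 and 14.4, 16.1 and 15.5 with the 3 inhibitors. The libraries of a group lay close together and the groups were well apart, 1.93-fold higher with UK-5099 (log2 fold change 0.95 ± 0.25, limma adjusted p = 0.00663). Among the 4 tested linker histone genes annotated as protein-coding, H1f4 was the one that was higher.

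Of the 17 H2B genes, 13 were tested, 3 were lower and 10 did not pass, and all 13 log2 fold changes were below 0, from -1.43 to -0.18. The share of their 50-base stretches that also occur in another transcript ran from 0% for H2bc21 to 100% for H2bc23. The 13 directions are therefore not independent of each other. H2bc4 (ENSMUSG00000018102; Hist1h2bc) had the highest level of the class, at 815 normalized counts per kb. Its normalized counts were 787, 765 and 809 with UK-5099 and 1101, 1054 and 1139 with the 3 inhibitors. The groups were apart and the gene was 1.39-fold lower with UK-5099 (log2 fold change -0.48 ± 0.05, limma adjusted p = 1.58e-05). H2bc8 (ENSMUSG00000058385; Hist1h2bg) had 145, 177 and 155 normalized counts with UK-5099 and 236, 207 and 235 with the 3 inhibitors. Again no library of one group reached the other, and the gene was 1.42-fold lower with UK-5099 (log2 fold change -0.51 ± 0.11, limma adjusted p = 0.00241). Of the 50-base stretches of the H2bc8 transcript 45.0% also occur in that of H2bc4, so their counts may share reads.

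H2bc21 (ENSMUSG00000068854; Hist2h2be) lies on chromosome 3, encodes the H2B variant known in mouse for its high level in olfactory neurons, and had the largest fall of the 29 genes. Its normalized counts were 44.7, 44.5 and 43.8 with UK-5099 and 103, 133 and 129 with the 3 inhibitors. The UK-5099 libraries were nearly equal and all far below the others, 2.69-fold lower (log2 fold change -1.43 ± 0.16, limma adjusted p = 1.54e-05). No 50-base stretch of its transcript occurs in another transcript. H2bc6, whose count in the class came after those of H2bc4 and H2bc8, had 77.2, 93.7 and 64.5 normalized counts with UK-5099 and 92.8, 90.3 and 82.2 with the 3 inhibitors. These overlapped.

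The other 9 tested H2B genes, H2bc1, H2bc7, H2bc9, H2bc11, H2bc12, H2bc13, H2bc15, H2bc23 and H2bc24, did not pass. In alternative settings H2bc1 was called lower in 3, among them the fit without UK-5099 replicate 2 (limma adjusted p = 0.032), H2bc23 in 2 and H2bc11 in 1. The groups of H2bc1, H2bc11 and H2bc23 did not overlap, with lower counts under UK-5099. H2bc1, the H2B gene known from testis, had 5.08, 12.1 and 8.53 normalized counts with UK-5099 and 15.5, 14.3 and 17.4 with the 3 inhibitors (log2 fold change -0.87 ± 0.37, limma adjusted p = 0.0698). H2bc23 had 53.4 ± 4.08 and 68.9 ± 4.39 (SD, n = 3 each; log2 fold change -0.36 ± 0.16, limma adjusted p = 0.0848), and H2bc23 and H2bc24 cannot be told apart by 50-base stretches, which they share at 100% and 99.8%. Over the 10 H2B genes that did not pass, limma adjusted p ran from 0.0698 to 0.612 and means from 11.6 to 83.5 normalized counts.

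H2A genes taken by the naming rule were scarce. Of 19, only H2ac6 and H2ac8 reached the level for testing and neither passed by limma or limma-voom or had an unadjusted p under 0.05. H2ac8 had 16.3, 12.1 and 11.0 normalized counts with UK-5099 and 12.4, 9.83 and 10.05 with the 3 inhibitors (log2 fold change 0.25 ± 0.33, limma adjusted p = 0.556). H2ac6 had 14.2, 8.35 and 7.31 against 13.4, 10.7 and 15.5 (log2 fold change -0.41 ± 0.37, limma adjusted p = 0.373). Both pairs of groups overlapped, and the remaining 17 H2A genes had means of at most 7.96.

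Of 12 H3 genes, 3 were tested and they went separate ways. H3c15 (ENSMUSG00000081058; Hist2h3c2) on chromosome 3 had 80.3, 77.0 and 70.6 normalized counts with UK-5099 and 171, 172 and 185 with the 3 inhibitors. The groups were far apart, 2.30-fold lower with UK-5099 (log2 fold change -1.20 ± 0.12, limma adjusted p = 7.50e-06). Of its 50-base stretches 63.5% occur in the annotated transcript Gm20634, so reads may be split between them. H3c3 (ENSMUSG00000069310; Hist1h3c) on chromosome 13 had 17.3, 15.8 and 24.4 normalized counts with UK-5099 and 11.3, 9.83 and 9.14 with the 3 inhibitors. These did not overlap, and H3c3 was 1.79-fold higher with UK-5099 (log2 fold change 0.84 ± 0.32, limma adjusted p = 0.0427). That call was lost in 8 of 15 alternative settings. Without UK-5099 replicate 1 the limma adjusted p was 0.0736 and without UK-5099 replicate 3 it was 0.139. Without 3-inhibitor replicates 1, 2 and 3 it was 0.0603, 0.0966 and 0.105, within a range of 0.0109 to 0.139 over all settings. H3c4 had 12.2, 15.8 and 11.0 normalized counts against 17.5, 12.5 and 20.1, which overlapped (log2 fold change -0.33 ± 0.32, limma adjusted p = 0.415).

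The 6 tested H4 genes were H4c3, H4c8, H4c9, H4c12, H4c17 and H4c18. By limma 0 of them passed, 0 had an unadjusted p under 0.05, and none passed by limma-voom on the recovered reads. H4c9 had the highest count of the class, with 133, 123 and 125 normalized counts under UK-5099 and 156, 117 and 106 under the 3 inhibitors. The 3-inhibitor libraries lay on both sides of the others (log2 fold change 0.03 ± 0.15, 95% interval -0.30 to 0.36, limma adjusted p = 0.881). H4c17 had 31.5, 34.3 and 40.2 against 34.0, 36.6 and 49.3, which overlapped. H4c18 had 26.4, 26.0 and 34.1 against 37.1, 40.2 and 42.9, which did not overlap but did not pass (log2 fold change -0.47 ± 0.22, limma adjusted p = 0.0907). It was called lower in 3 alternative settings, among them the fit without UK-5099 replicate 3 (limma adjusted p = 0.0494). H4c17 and H4c18 share 89.8% and 83.2% of their 50-base stretches with each other.

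**Figure D2:**
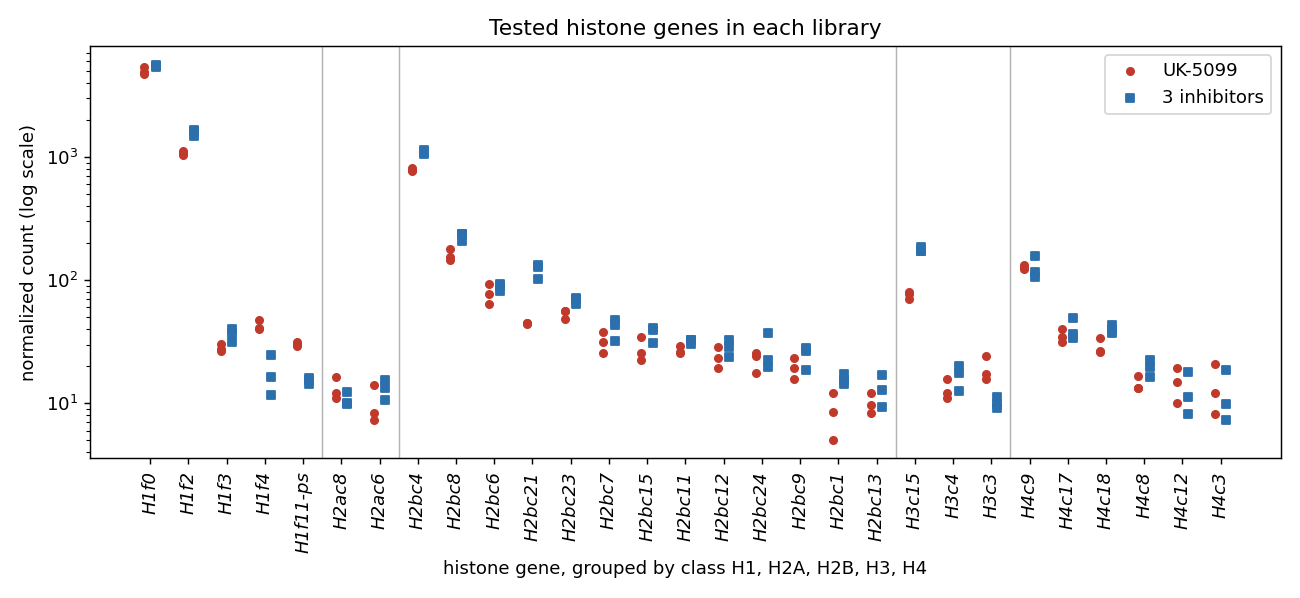
Normalized count (y axis, log scale) of the 29 tested histone genes in each library, with UK-5099 as circles and the 3 inhibitors as squares and vertical lines between classes. H1f0, H1f2 and H2bc4 stand above the rest, and the groups of H2bc21 and H3c15 are clearly apart, with UK-5099 below.

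A few genes held most of the histone counts. H1f0 gave 59.7% of the summed normalized count of the 72 genes, H1f2 15.2% and H2bc4 10.8%. The summed count of the 71 genes other than H1f0 was 2979.9, 2956 and 3016 with UK-5099 and 3999, 4058 and 4164 with the 3 inhibitors, 1.37-fold lower with UK-5099. Per 1000000 normalized counts of a library, these 71 genes took 123.5, 124.1 and 124.4 with UK-5099 and 163.6, 168.0 and 175.4 with the 3 inhibitors. The groups lay apart on both scales.

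By class, the H2B sum was 1304 ± 26.6 (SD, n = 3) with UK-5099 and 1830 ± 66.7 with the 3 inhibitors. The H3 sum was 155 ± 12.8 against 236 ± 3.86, and H3c15 gave 64.5% of its counts over all libraries. The H1 sum without H1f0 was 1196 ± 40.3 against 1671 ± 89.5, with 92.9% from H1f2. These 3 sums were lower with UK-5099 by more than the spread between libraries. The H4 sum, 263 ± 17.7 against 274 ± 25.1, and the H2A sum, 65.9 ± 17.3 against 62.6 ± 3.58, differed by less than that spread. The H2A sum covers only genes taken by name and leaves out H2aw, which had 67.5 ± 18.4 against 111 ± 20.8. No test was run on sums.

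The 43 genes below the level for testing included the testis and egg linker histones H1f6, H1f7 and H1f8. The last tested gene, H2bc13, had a mean of 11.6 normalized counts and the first one left out, H1f5, 9.04. The summed count of the 43 genes was 166, 134 and 138 with UK-5099 and 132, 129 and 101 with the 3 inhibitors, so the groups did not overlap. These sums were higher with UK-5099, unlike that of the 71 genes other than H1f0. The lowest UK-5099 library was close to the highest of the 3 inhibitors. The 11 genes without a read were H1f7, H1f8, H1f9, H2ac1, H2ac18, H2ac19, H2ac21, H2bc18, H3c13, H3c14 and H4c2. Of these 11, 6 share at least 50% of their 50-base stretches with another transcript. A count of 0 allows up to 3 reads per library, or 2.68 to 3.65 normalized counts, from counting error alone.

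Shared sequence touches most of the family. The median share of a gene's 50-base stretches that also occur in another transcript was 49.4% over the 72 genes and 43.2% over the 29 tested. It was 0% for H1f0, H2bc21 and H1f11-ps, and 8.54% for H1f2. The authors' rule for reads with several matches is not given in the sources used here, and its part in the counts was not tested. Differences of genes that share much sequence are therefore uncertain as single genes.

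The genes were also grouped by the 3′ end of their longest annotated transcript alone. The highest mean level was 93.7 normalized counts per kb among the 22 genes whose transcript ended near the stem-loop, 854 among the 20 that ran further, and 2544 among the 30 with no stem-loop in the transcript. The medians were 9.58, 12.5 and 4.35, so the group with the highest single gene had the lowest median, and no test of level against 3′ end was run. Of the genes that ended near the stem-loop 7 were tested, of which H3c3 was higher and none was lower. Of those that ran further 12 were tested, of which H1f4 was higher and H1f2, H2bc8 and H3c15 lower. Of those without a stem-loop 10 were tested, of which H1f11-ps was higher and H1f0, H2bc4 and H2bc21 lower. All 6 genes that fell thus belong to the groups whose annotated transcript does not end at the stem-loop. Those groups also held all but 7 of the 29 tested genes. The 7 had low means, from 14.6 to 37.7 normalized counts, whereas the 6 genes that fell had means from 83.0 to 5229. The part of level in these calls was not tested. Some annotated transcripts without a stem-loop are short, such as H4c12 at 312 bases and H2bc13 at 381. Such a transcript may stop before the site, so its absence there can reflect the annotation. The median log2 fold changes of the tested genes were -0.26, -0.33 and -0.34, so the groups differed little in the middle, and no test of a difference between them was run.

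**Figure D3:**
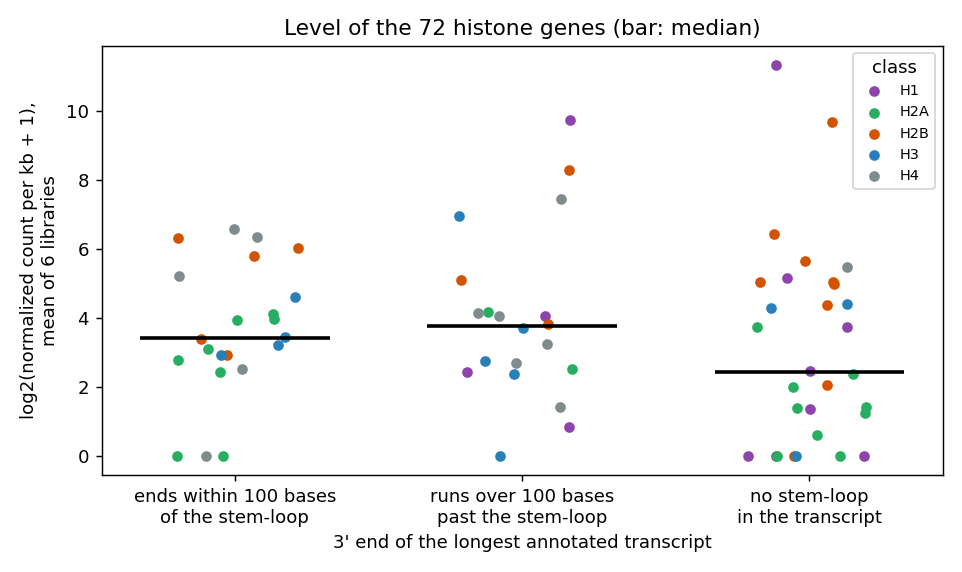
Mean level of the 72 histone genes over 6 libraries (y axis, log2 of normalized count per kb plus 1), grouped on the x axis by the 3′ end of the longest annotated transcript and coloured by class. The genes of the highest levels lie in the groups that run past the stem-loop or hold none, while the bars at the medians do not follow that order.

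Because most of these genes are known to be expressed in S phase, their values were set beside a list of 51 genes of DNA synthesis and S phase entry in the same libraries. Of these 51, 45 were higher with UK-5099, 1 was lower (E2f2, log2 fold change -1.01) and 5 did not pass. Of all genes tested, 27.2% were higher and 26.6% lower, which is the background for this list and the lists that follow. Their median log2 fold change was 0.64, a 1.56-fold rise, where that of the tested histone genes was -0.32. Rrm1 and Rrm2, the subunits of ribonucleotide reductase, were 2.04-fold and 2.11-fold higher (limma adjusted p = 2.66e-08 and 8.29e-08). Mcm4, of the replicative helicase, was 1.90-fold higher (limma adjusted p = 9.04e-08). Ccna2, the S phase cyclin, was 2.01-fold higher (limma adjusted p = 9.87e-08). Mki67, a marker of cycling cells, rose 1.50-fold (limma adjusted p = 6.85e-07).

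The summed S phase count ran from 56012 to 60113 with UK-5099 and from 35303 to 37946 with the 3 inhibitors. Per 1000 of these S phase counts there were 49.6, 52.8 and 52.6 counts of histone genes other than H1f0 with UK-5099, and 105, 109 and 118 with the 3 inhibitors. The ratio was 2.14-fold lower with UK-5099, with a mean and SD of 51.6 ± 1.80 against 111 ± 6.53, and the groups were far apart. H1f2 alone gave 37.7% of these histone counts over all libraries, and H2bc4 came next. The ratio therefore rests mostly on few genes, and it was not taken for each histone class. The H2A and H4 sums differed little between the groups, where the S phase sum was higher with UK-5099. The upper end of the 95% interval of the log2 fold change lay below the S phase median of 0.64 for 23 of the 29 tested histone genes, or 79.3%, among them all 13 of H2B. The same held for 77.2% of all 15704 genes tested, so the share of histone genes was near the background.

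**Figure D4:**
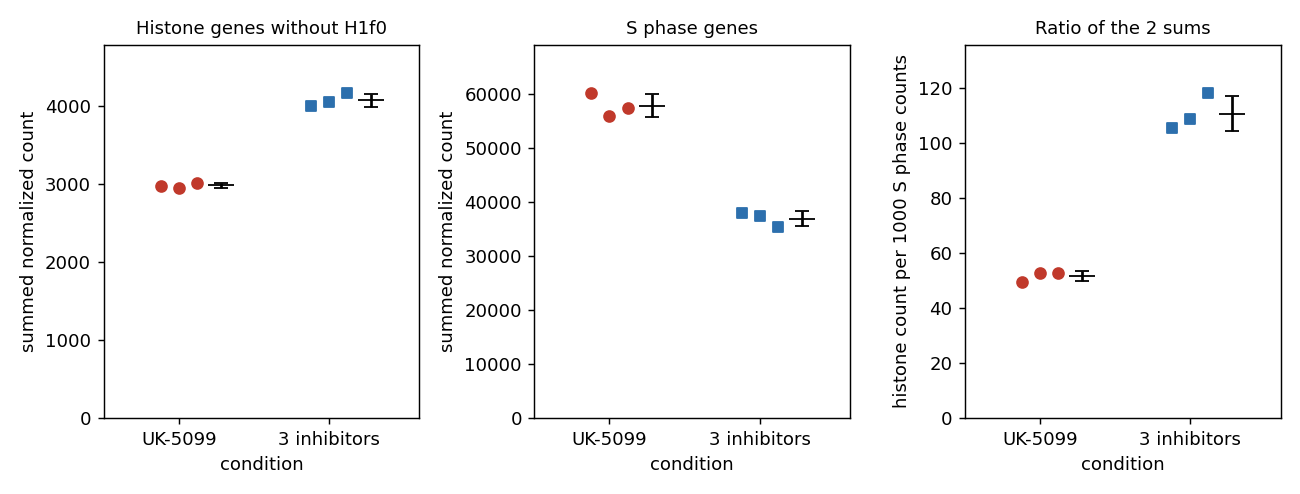
Summed normalized count of the histone genes other than H1f0 (left), of the 51 S phase genes (middle), and histone counts per 1000 S phase counts (right) in each library, with mean and SD beside the points. UK-5099 lies below the 3 inhibitors on the left at 2984 against 4074, above in the middle, and below on the right at 51.6 against 111.

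Replacement histones, which are used outside S phase or at special sites, were more often higher than lower. Of 13 in all, 9 were tested, 5 were higher with UK-5099, 1 was lower and 3 did not pass, with a median log2 fold change of 0.21. The shares of all genes tested were 27.2% higher and 26.6% lower. Cenpa, the centromeric H3, was 1.95-fold higher (1081 ± 125 against 552 ± 41.6 normalized counts, limma adjusted p = 2.73e-06). H2ax, whose phosphorylated form marks DNA breaks, was 1.55-fold higher (1107 ± 104 against 715 ± 56.4, limma adjusted p = 3.50e-05). H2az1, an H2A.Z gene found at promoters, was 1.32-fold higher (11870 ± 653 against 9014 ± 459, limma adjusted p = 5.21e-05). Macroh2a2 was 2.19-fold higher at a low level (47.1 ± 9.62 against 20.7 ± 1.58, limma adjusted p = 0.00158). H3f3b, which encodes the replacement histone H3.3, was 1.154-fold higher (16447 ± 138 against 14274 ± 887, limma adjusted p = 0.00358). The call of H3f3b was lost when libraries were centred on their median (limma adjusted p = 0.053), and H2aj was lower, with a log2 fold change of -0.20.

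Genes for the transcription of histone genes were divided. Of 14 tested, 3 were higher with UK-5099, 5 were lower and 6 did not pass, beside 27.2% higher and 26.6% lower among all genes. Those higher were Ccne1 (1.83-fold, limma adjusted p = 0.000113), Ccne2 (1.52-fold, limma adjusted p = 0.000115) and E2f1 (log2 fold change 0.49). All 3 stand in the S phase list too, and the 5 lower genes do not. Ccne1 and Ccne2 encode the cyclins that activate Cdk2 to phosphorylate NPAT, and E2f1 an activator of S phase genes. Trrap, a scaffold of histone acetyltransferase complexes, was 1.59-fold lower (limma adjusted p = 6.41e-07), and Yy1, a zinc finger factor, was 1.33-fold lower (limma adjusted p = 5.78e-06). Npat, the coactivator at histone gene clusters, had 1046, 1066 and 1082 normalized counts with UK-5099 and 1183, 1196 and 1143 with the 3 inhibitors. Its groups did not overlap, with a small difference (log2 fold change -0.14 ± 0.05, limma adjusted p = 0.0274) that was lost in 6 alternative settings, among them the fits without UK-5099 replicate 1 (0.0843), 3-inhibitor replicate 1 (0.0821) or 3-inhibitor replicate 2 (0.102). Hinfp, a factor of H4 promoters, and Kat5, an acetyltransferase, were also lower, with log2 fold changes of -0.19 and -0.34.

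Of 26 genes of histone mRNA 3′ end formation, translation and decay, 9 were higher with UK-5099, 5 were lower and 12 did not pass, with a median log2 fold change of 0.03. Among all genes tested 27.2% were higher and 26.6% lower. Slbp, which encodes the stem-loop binding protein, had 888, 895 and 848 normalized counts with UK-5099 and 840, 938 and 878 with the 3 inhibitors. The groups overlapped (log2 fold change -0.01 ± 0.06, 95% interval -0.14 to 0.11, limma adjusted p = 0.870). Cstf2, a subunit of the cleavage machinery, was 1.39-fold higher (limma adjusted p = 6.07e-06). Eri1, the exonuclease that trims histone mRNA ends, was 1.35-fold higher (limma adjusted p = 2.07e-05). Mif4gd, an SLBP partner in translation, was 1.48-fold lower (limma adjusted p = 1.60e-05). Ssrp1, a subunit of the histone chaperone FACT that stands in this list and in the next, was 1.29-fold higher (limma adjusted p = 4.29e-05).

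Histone chaperones and import factors rose more often. Of 35 tested, 21 were higher with UK-5099, 6 were lower and 8 did not pass, with a median log2 fold change of 0.26. Among all genes tested 27.2% were higher and 26.6% lower. Npm3, of the nucleoplasmin family, was 2.05-fold higher (limma adjusted p = 1.45e-07). Asf1b, a carrier of H3 and H4, was 2.0-fold higher (limma adjusted p = 3.35e-06) and Chaf1a, the large subunit of the assembly factor CAF-1, 1.87-fold higher (limma adjusted p = 1.21e-06). Nasp, which stores free H3 and H4 and binds H1, was 1.56-fold higher (limma adjusted p = 6.57e-07), and Anp32e, which removes H2A.Z, was 1.55-fold higher (limma adjusted p = 6.74e-07). The 6 that were lower were Ubn2, Cabin1, Atrx, Supt6, Cdan1 and Spty2d1.

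**Figure D5:**
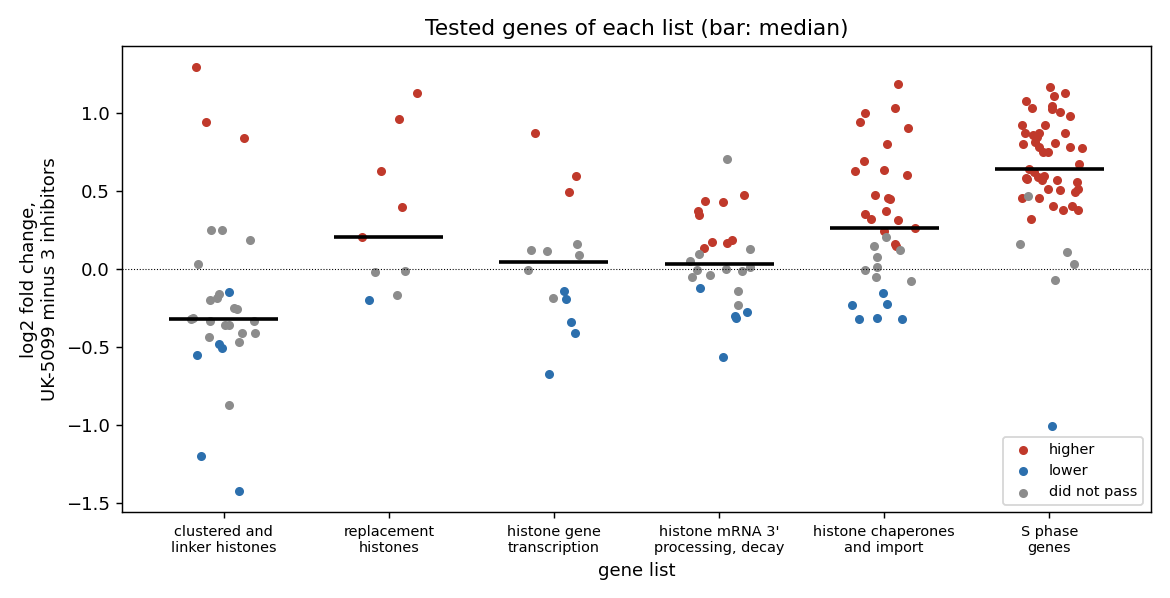
Log2 fold change (y axis, UK-5099 minus 3 inhibitors) of the tested genes of 6 lists (x axis), coloured by the limma result, with a bar at the median of each list. The median is -0.32 for the histone genes, 0.26 for chaperones and 0.64 for S phase genes, and some genes stand in more than 1 list.

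The promoters were searched on both strands in the 250 bases before the start, in the RefSeq table for GRCm38.p6, for TATAAA (the TATA box), CCAAT (the site of NF-Y), ATTTGCAT (the octamer site of Oct-1) and AAACACA (a box described in H1 promoters). CCAAT was present in 15 of 15 H2B and 17 of 17 H2A genes, 80% of H3 genes and 72.7% of H1 genes, but in 27.3% of H4 genes, against 37.5% of 27025 genes in the table. The octamer was present in 46.7% of H2B and 35.3% of H2A genes and in 0% of H1, H3 and H4 genes, against 1.81% of all. AAACACA was present in 45.5% of H1, 11.8% of H2A and 13.3% of H2B genes and in 0% of H3 and H4 genes, against 7.2% of all, and TATAAA in 36.4% to 54.5% of the classes against 14.3%. A match is a description of the letters and not of binding. The 200 bases before the start are shown for H1f2 and H1f4, which differ in direction, and for H2bc8 and H3c15, which were both lower, on GRCm38.p6 with matches in capitals and each written 5′ to 3′ on the gene's strand.
H1f2, chr13:23738607-23738806, plus strand: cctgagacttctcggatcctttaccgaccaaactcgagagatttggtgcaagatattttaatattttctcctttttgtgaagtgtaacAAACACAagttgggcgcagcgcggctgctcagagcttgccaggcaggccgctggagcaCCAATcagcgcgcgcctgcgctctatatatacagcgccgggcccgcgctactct
H1f4, chr13:23622559-23622758, minus strand: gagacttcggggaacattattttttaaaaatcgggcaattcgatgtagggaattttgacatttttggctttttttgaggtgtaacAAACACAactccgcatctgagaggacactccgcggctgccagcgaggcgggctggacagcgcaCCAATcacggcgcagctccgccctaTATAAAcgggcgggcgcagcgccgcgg
H2bc8, chr13:23571200-23571399, plus strand: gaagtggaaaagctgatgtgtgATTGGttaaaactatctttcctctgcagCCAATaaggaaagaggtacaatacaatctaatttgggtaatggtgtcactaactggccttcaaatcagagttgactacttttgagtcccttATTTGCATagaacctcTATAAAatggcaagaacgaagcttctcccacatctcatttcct
H3c15, chr3:96239128-96239327, minus strand: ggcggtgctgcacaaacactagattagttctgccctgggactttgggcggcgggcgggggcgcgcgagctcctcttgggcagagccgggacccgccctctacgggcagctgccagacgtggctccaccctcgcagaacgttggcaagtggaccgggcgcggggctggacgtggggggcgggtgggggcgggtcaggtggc

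H1f2 and H1f4 both held AAACACA and CCAAT, and H1f4 also held TATAAA. H2bc8 held the octamer, TATAAA and 2 matches of CCAAT. H3c15 held none of these 4 motifs in the window shown, although it was lower like H2bc8. None of the 4 motifs was thus common to the 3 lower genes shown.

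The libraries held 19909589 to 27037795 gene reads, and those of both groups overlapped in depth. Airway basal cell markers were present in every library, at a summed 259724 to 280872 normalized counts with UK-5099 and 119709 to 131634 with the 3 inhibitors. Of 7, 5 were higher and Ngfr lower. All 5 tested secretory markers were lower (6841 to 8636 against 47238 to 49892 summed counts) and all 6 of squamous and hillock cells were higher (219629 to 237047 against 68604 to 74497). Fibroblast markers summed to 6.50 to 14.6 against 8.25 to 10.05 and endothelial ones to 0 to 3.71 against 0 to 2.68, with none of them reaching the level for testing and with Col1a2, Col3a1 and Cdh5 at 0 in every library. Leukocyte markers summed to 495 to 703 against 510 to 533, with Cd74 lower. Most of that sum came from Cd68, at a mean of 522, which did not pass. Ptprc, Cd3e and Lyz2 had means of 0.49, 1.0 and 6.99 and were not tested. Multiciliated markers summed to 123 to 134 against 91.2 to 148, with Rsph1 higher. Foxj1 and Dnah5, at means of 1.79 and 2.76, were not tested. Among sex-linked genes Xist was higher with UK-5099 (means of 24276 against 14246) and the 4 Y-linked genes lower, such as Ddx3y (422 against 745). Both kinds were present in every library. A difference in source between the groups cannot be told apart from the treatment. The part of these differences in cell state and source in the histone results was not tested.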

How the data were processed

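The 6 libraries, 3 per condition, were prepared from total RNA with a VAHTS Universal V8 kit, per the labels. DESeq2 1.36.0, HISAT2 2.1.0 and the build GRCm39 stand in the submitters' processing notes with no role. How reads were counted, with which annotation and whether by strand, is not given in the sources used here. Deposited values, of a unit other than plain counts, are log2 of read counts that the authors divided by a size factor, with a text mark for 0.

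Values were raised back from log2. Divided by the worth of 1 read, 99.9875% to 99.992% of nonzero values came within 0.02 of whole reads, which were used as recovered reads. Repeated entries (359 of 57107) were dropped. A minimum mean of 10 normalized counts was set, and genes were fitted as log2(normalized count + 1) with limma 3.58.1 in R 4.3.3 (eBayes with trend, two-sided, no covariates) and adjusted by Benjamini-Hochberg over all 15704. The count of 1 added before the log2 understates changes of low genes. Errors of counts are SD, those of log2 fold changes SE. Tests were tried on simulated data. Sums, classes and lists were only described.

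The members, gene lists and the rule for named genes were chosen with earlier results of these data known. Every tested member is named. Values in each library are given for tested linker histones, the 3 most abundant tested genes per core class and the called ones of largest change. Each list is given by its counts with the 4 called genes of smallest adjusted p, and 10 fixed genes whatever their result. Transcripts were taken from GENCODE M21 (GRCm38) and promoters from RefSeq (GRCm38.p6), joined by gene identifier, and no coordinate was carried between builds. Alternatives were other scalings, filters, pseudocounts and thresholds, limma variants, limma-voom on recovered reads, the replicate block, and each library left out. Counts of settings in which a gene lost or gained its call leave out the threshold of 0.01, at which H1f0 and H3c3 were also lost. Software was numpy 2.4.6, pandas 2.3.3 and matplotlib 3.10.9 under Python 3.11.15.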

Additional observations from a re-analysis of the deposited data

How the results depend on the processing

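Of the 9 called histone genes, H1f2, H1f4, H1f11-ps, H2bc4, H2bc8, H2bc21 and H3c15 kept their limma calls and directions in every alternative in which they were tested, whereas H1f0 and H3c3 did not. A minimum mean of 50 left 0 genes higher, since H1f4, H1f11-ps and H3c3 are then not tested. Without the trend 10 were lower, against 6. Leaving out each library gave 2 to 3 higher and 5 to 7 lower. Centring each library on its median gave 2 higher and 9 lower, and moved the log2 ratio of the summed counts from -0.27 to -0.36 for all members, from -0.45 to -0.54 without H1f0, from -0.22 to -0.31 for H1 and from -0.49 to -0.58 for H2B. Genes higher with UK-5099 were 50.6% of all called genes, 39.1% after that centring and 54.5% after upper-quartile rescaling. Signs changed for genes that were never called. The log2 fold change of H4c9 became -0.0577 on centring, and that of Slbp 0.0163 on upper-quartile rescaling and 0.0162 with limma-voom. With libraries left out in turn, it ran from -0.0845 to 0.191 for H4c9, -0.380 to 0.0685 for H2bc24, -0.145 to 0.534 for H4c3 and -0.0502 to 0.0295 for Slbp. The cause was not tested. Deviations of same-numbered libraries correlated at -0.017, 0.12 and -0.089. Those of libraries with unlike numbers ran from -0.20 to 0.19. The numbers thus gave no sign of pairing, but deviations of 3 libraries per group cannot exclude it. With the replicate block 2 genes were higher and 6 lower, H3c3 being lost (limma adjusted p = 0.069). Depth limits the low genes most: 20 of the 29 had means under 50 normalized counts.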

Other observations

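Histone genes outside the naming rule and the lists were also measured. H2aw, described as the H2A.W histone, had 46.7, 74.2 and 81.6 normalized counts with UK-5099 and 88.6, 130 and 115 with the 3 inhibitors. Its mean of 89.3 over all libraries is not part of the H2A sum given above, which is smaller in both groups. The groups did not overlap and the gene was 1.66-fold lower with UK-5099 (log2 fold change -0.73 ± 0.22, limma adjusted p = 0.0149). H3f3c, an H3.3-like gene, ranged from 264 to 543 with UK-5099 and from 414 to 428 with the 3 inhibitors and did not pass (limma adjusted p = 0.400). These genes were chosen after their values were seen.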
